A study of Mus musculus with 55 samples.

Results

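Fully grown oocytes (FGOs) homozygous for a point mutation in the ADD domain of DNMT3L were compared with wild-type FGOs by RNA-seq of single cells. DNMT3L has no catalytic activity of its own. It binds DNMT3A and stimulates the de novo methylation of CG sites that the growing oocyte acquires before it is fully grown, maternal imprints among them. The ADD domains of both proteins bind histone H3 tails that carry no methyl group at lysine 4, which directs the complex away from active promoters. FGOs store the transcripts that later support meiotic maturation and the start of embryonic development.

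The 8 Dnmt3L ADD/ADD libraries (genotype label Dnmt3a+/+Dnmt3LD124A/D124A) were set against 18 wild-type libraries, 26 of the 55 samples in the series. The members were taken by their genotype and cell type labels. The 8 Dnmt3a ADD/ADD FGOs (Dnmt3aADA/ADADnmt3L+/+) and the 8 double mutant FGOs (Dnmt3aADA/ADA + Dnmt3LD124A/D124A) entered the 42-library fit and are given beside them where values are shared. The donor females were adults of 10 to 12 weeks. Cumulus cells were taken off before library preparation. The mutant line descends from 1 male founder made by CRISPR/Cas9 in zygotes of mixed C57BL/6 and C3H/HeN origin and was repeatedly backcrossed to C57BL/6J. How many females gave the oocytes of a group is not given in the sources used here. The p-values below measure the spread between oocytes, some of which may share an animal.

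The edit replaces aspartic acid by alanine at residue 124 of DNMT3L (D124A), a 421-residue protein by the reference transcript. The changed codon lies at chr10:78052028-78052030 (mm10), in coding exon sequence, exon 6 of 13 of the gene. The 30-base window below shows the reference and the donor template on the coding strand, with codon 124 in capitals, because this codon defines the mutant group.
reference: ttcctgtatgatgatGATggacaccagagt
donor: ttcctgtatgatgatGCTggccaccagagt
Counted from 1 at the 5′ end of the window, the donor differs by A17C, which makes the alanine codon, and by A21C, which leaves the next residue a glycine. The guide RNAs overlap this site, 1 on each strand, and are shown because they place both cuts beside the codon.
Guide RNA_1: ggtgtccatcatcatcatac
Guide RNA_2: ctcttcctgtatgatgatga
A substitution of this kind does not remove the transcript, so the counts do not test the genotype labels.

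Each library held the reads counted on 51734 genes. Totals ran from 11510790 to 17216121 counts in wild-type FGOs and from 7832458 (replicate 4) to 23739871 (replicate 2) in the mutants, and the mean total did not differ beyond its spread (exact permutation test, two-sided, p = 0.399 against 18 wild-type FGOs). The mutants had fewer genes with at least 1 count, 21060 ± 1516 (SD, n = 8) against 22910 ± 1342 (SD, n = 18; exact permutation test, two-sided, p = 0.004, adjusted p = 0.016 over 4 tests). Against wild-type replicates 9 to 18 (22690 ± 696.5, n = 10) the difference had p = 0.00882 (exact permutation test, adjusted p = 0.0176), but with genes counted only at 10 counts or more it had p = 0.0644. The 37 genes encoded by mitochondrial DNA stood at 0 in all 26 libraries.

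The wild-type FGOs fall into 2 sets. By the study's read summary, replicates 9 to 18 have a share of mapped reads like that of the mutants and replicates 1 to 8 do not. The sets also differed in expression, with 3720 of 14664 genes called between them (25.4%). Each result is therefore given against all 18 wild-type FGOs and against replicates 9 to 18 alone, and genes are named from those called in both comparisons in the same direction. Both comparisons share the mutants and the 10 wild-type libraries, so a call in both is a check against the wild-type set and not a second experiment. Fold changes are log2 values with their standard error, mutant over wild type, from edgeR's quasi-likelihood test, with Benjamini-Hochberg adjusted p-values. Levels are CPM, counts scaled to the library total and adjusted by trimmed mean of M-values (TMM), which compare libraries for 1 gene and not genes with each other.

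In Dnmt3L ADD/ADD FGOs, transcripts that were higher were mostly abundant and rose by a small amount, while those over 2-fold were mostly lower and rare. What detection limits at low counts did to this pattern was not tested. Against 18 wild-type FGOs, 10 genes were over 2-fold higher (0.0636% of 15726 tested) and 93 lower (0.591%). Without a fold limit, 483 were higher (3.07%) and 481 lower (3.06%). Against replicates 9 to 18, 29 genes were over 2-fold higher (0.201% of 14438 tested) and 69 lower (0.478%), and without a fold limit 744 were higher (5.15%) and 591 lower (4.09%). Called in both were 3 higher (0.0208% of 14436 tested in both) and 29 lower (0.201%) over 2-fold, and 328 higher (2.27%) and 241 lower (1.67%) without a fold limit. The 328 higher genes had a median fold of 1.21 against 18 and 1.20 against replicates 9 to 18, at a median of 80.0 CPM. The 241 lower genes had median folds of 1.38 and 1.33 at a median of 21.5 CPM, and 22 of the 29 that passed 2-fold had a mean under 5 CPM. The median log2 fold change over all genes was -0.03 against 18 and 0.00 against replicates 9 to 18. Of the 569 genes called in both, 104 were also called between the wild-type sets. These counts depended on single libraries. Without mutant replicate 3, 371 genes were called in both comparisons, and without mutant replicate 7, 378.

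**Figure D1:**
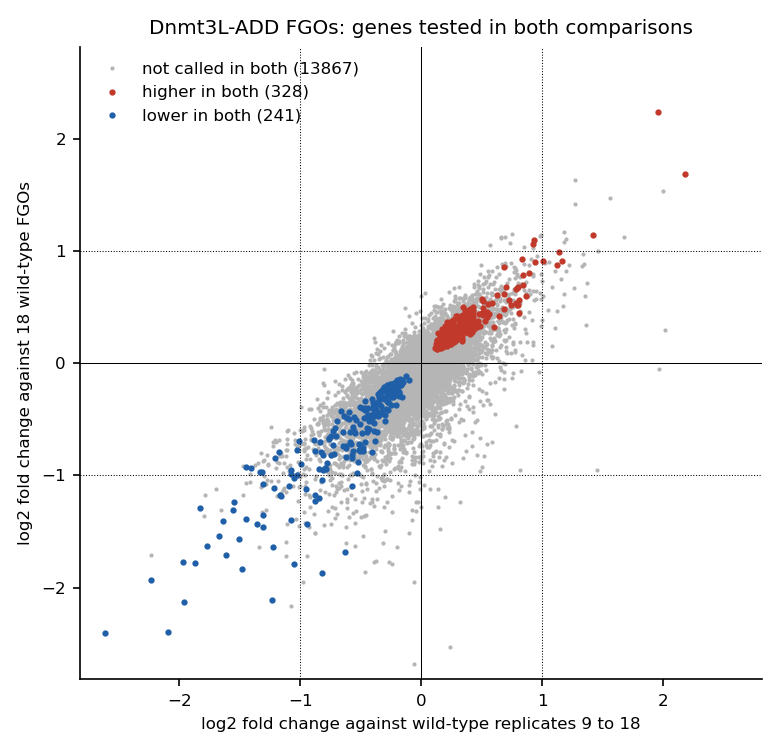
Each point is a gene tested in both comparisons, with its log2 fold change in Dnmt3L ADD/ADD FGOs against wild-type replicates 9 to 18 on the x axis and against all 18 wild-type FGOs on the y axis. Red points are the 328 genes higher in both and blue points the 241 lower in both, dotted lines mark 2-fold, and most coloured points lie inside them.

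Dnmt3l itself (chr10:78041947-78063622, overlapping Aire on the other strand) ran from 119.0 to 158.8 CPM in the mutants, with a median of 137.7. Wild-type replicates 9 to 18 ran from 129.3 to 155.0 with a median of 139.0, and all 18 from 81.1 to 155.0 with a median of 130.4. The mutant range contains that of replicates 9 to 18, and the lowest wild-type values come from replicates 1 to 8. The log2 fold change was 0.19 ± 0.10 against 18 (edgeR adjusted p = 0.233) and -0.00 ± 0.06 against replicates 9 to 18 (adjusted p = 0.988). Dnmt3a, its catalytic partner, had 311.6 to 357.9 CPM in the mutants and 247.7 to 366.9 in wild-type FGOs, with log2 fold changes of 0.12 (adjusted p = 0.163) and 0.04 (adjusted p = 0.678). Neither transcript passed the test.

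Of 20 tested genes of the DNA methylation machinery, 1 was higher and 1 lower in both comparisons (5.0% each, against 2.27% and 1.67% over all genes). Naa10, an N-terminal acetyltransferase that is also tied to maintenance methylation, rose by 0.61 ± 0.15 and 0.69 ± 0.17 from a mean of 3.52 to 5.38 CPM. Zfp445, a zinc finger protein that protects imprints in the embryo, had -0.33 ± 0.09 and -0.35 ± 0.09, but its call against 18 was lost in 5 of the 26 fits that left out a single library, with adjusted p up to 0.0798. Enzymes that write and erase methylation at H3K4, which the ADD domains bind when unmethylated, held 0 called genes of 19 in edgeR and DESeq2. Of these enzymes, 1 gene passed an unadjusted p of 0.05 in both comparisons. The H3K36 and H3K9 methyltransferases (20 tested) and the Polycomb proteins (28 tested) also had 0 in both tools, with 4 and 2 genes at an unadjusted p under 0.05. The share of all tested genes that passes this unadjusted rule is not given here. The unadjusted counts of lists, here and below, therefore cannot be set against a background. The medians of these lists lay between -0.05 and 0.02 on the log2 scale in both comparisons.

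Of the imprinted genes, germline genes, piRNA pathway genes and two-cell embryo genes tested, Mest was the 1 called by edgeR in both comparisons. Of 37 tested genes of imprinted domains with maternally methylated control regions, 1 was higher (2.70%, against 2.27% over all genes) and none lower. Mest, a hydrolase-like protein of the imprinted domain on chromosome 6, ran from 96.6 to 124.9 CPM in the mutants and from 74.8 to 111.1 in 18 wild-type FGOs. Its log2 fold change was 0.24 ± 0.06 (adjusted p = 0.0193) and 0.25 ± 0.07, the groups overlapped, and without mutant replicate 8 the adjusted p against 18 was 0.0538. Germline genes that somatic cells silence by methylation (21 tested) had 0 calls in edgeR, 1 in DESeq2 and 5 at an unadjusted p under 0.05. Genes of the piRNA pathway (27 tested) had 0 in both tools and 1 unadjusted. The two-cell embryo and retrovirus-linked genes (6 tested) and the imprinted genes whose control regions are methylated in the male germline (5 tested) had 0 by either tool and 0 unadjusted.

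Sh3bp2, an adaptor protein of immune receptor signalling, headed the higher genes of at least 10 CPM (chr5:34525838-34563641). Its level was 158.6 to 208.5 CPM in the mutants, median 182.5, against 91.7 to 157.3 in 18 wild-type FGOs, median 117.5. Every mutant oocyte lay above every wild-type oocyte, with a log2 fold change of 0.61 ± 0.08 (adjusted p = 5.87e-06) against 18 and 0.63 ± 0.05 (adjusted p = 1.85e-07) against replicates 9 to 18. Espl1 (chr15:102296293-102324356) encodes separase, the protease that cleaves cohesin at anaphase. It ran from 366.8 to 421.8 CPM in the mutants and from 291.7 to 357.8 in wild-type FGOs, again with no overlap, and rose by 0.32 ± 0.05 (adjusted p = 5.72e-05) and 0.31 ± 0.03. It was the 1 gene called among 33 tested genes of meiotic cohesin and the spindle (3.03%, against 2.27% higher over all genes).

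Gcc1 (chr6:28416091-28428390), a golgin of the trans-Golgi network, was over 2-fold higher. It had 24.9 to 35.2 CPM in the mutants, median 29.1, and 6.15 to 15.99 CPM in replicates 9 to 18, median 10.8. These groups were apart, while 2 libraries of replicates 1 to 8 reached into the mutant range, up to 33.1 CPM. The log2 fold change was 1.14 ± 0.18 (adjusted p = 1.02e-04) and 1.42 ± 0.14 (adjusted p = 2.87e-06). Gcc1 overlaps Arf5 and Fscn3 on the other strand, and the strand setting of the counting is not given in the sources used here. The other genes over 2-fold higher in both were Gm42887, a transcript with no assigned class (chr5:69503842-69504960), and Erdr1. Gm42887 ran from 8.44 to 13.3 CPM in the mutants and from 0.919 to 8.24 in wild-type FGOs, a log2 change of 2.23 ± 0.26 and 1.95 ± 0.33 with no overlap. Erdr1, which the files place on the Y chromosome in the region shared with X, ran from 2.44 to 5.57 CPM in the mutants and from 0.118 to 3.20 in wild-type FGOs. Its log2 fold changes were 1.68 ± 0.30 and 2.18 ± 0.34, and the groups overlapped.

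Further higher genes with high counts belonged to varied processes. Tsc22d4, a leucine zipper protein of metabolic signalling, had 182.2 to 208.0 CPM in the mutants and 140.8 to 187.3 in wild-type FGOs, with log2 fold changes of 0.28 ± 0.04 and 0.32 ± 0.04. Hmg20b, a subunit of a complex that removes H3K4 methylation (chr10:81346048-81350480), had 27.1 to 35.3 CPM against 14.97 to 28.4, with 0.56 ± 0.09 and 0.73 ± 0.09. Pdcd2l, a factor linked to ribosomal subunit export, had 93.0 to 107.0 CPM against 76.7 to 102.7, with 0.28 ± 0.05 and 0.36 ± 0.04. The mutants stood apart from replicates 9 to 18 for all 3 genes and overlapped the full set of 18 for all 3. Among the rest were the kinesin Kifc3 (0.55 and 0.51 against 18 and replicates 9 to 18), the Mediator subunit Med22 (0.36 and 0.46) and the histone H2B ubiquitin ligase Rnf40 (0.41 and 0.30). The nucleoporin Nup37 had 0.48 and 0.68, Oaz2, an antizyme that restrains polyamine synthesis, 0.52 and 0.55, and Gm45663, another transcript with no assigned class, 0.93 and 0.83.

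**Figure D2:**
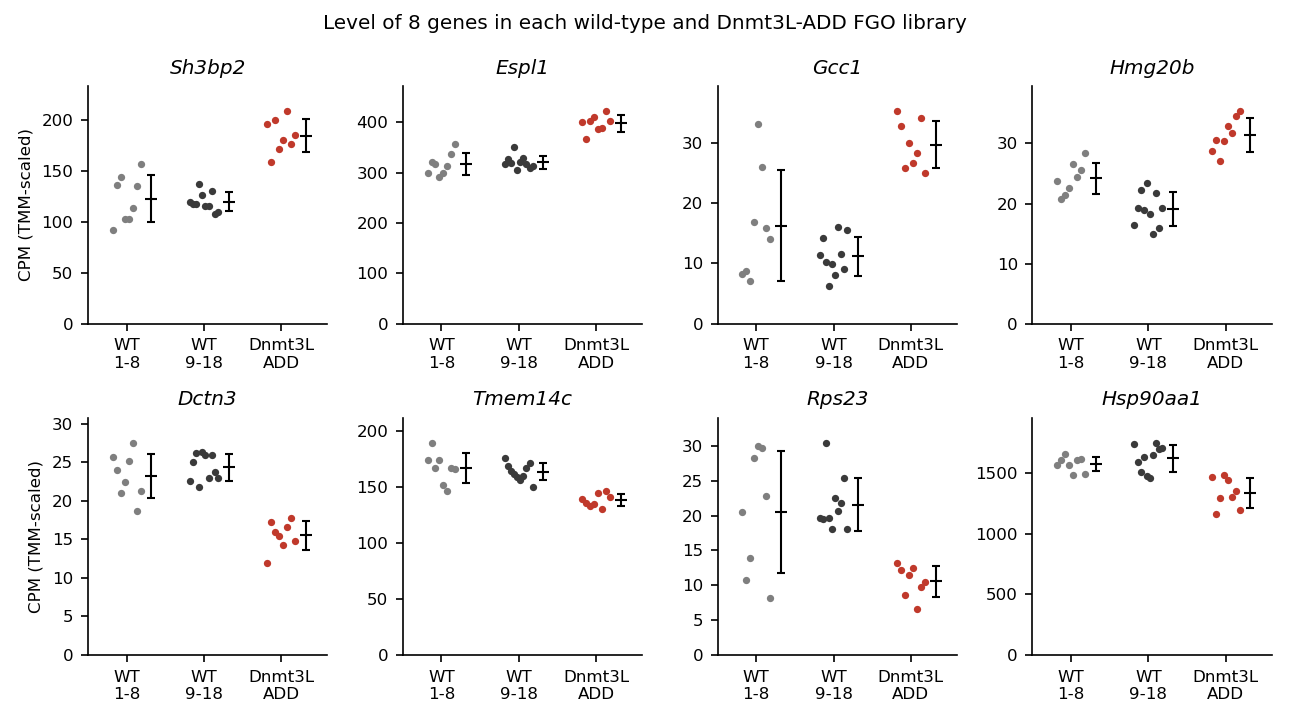
Levels of 8 genes in each FGO library in TMM-scaled CPM, with wild-type replicates 1 to 8 in light grey, wild-type replicates 9 to 18 in dark grey and the 8 Dnmt3L ADD/ADD oocytes in red. Bars at the right of each group are the mean and SD, the upper row holds genes called higher and the lower row genes called lower, and the mutants of Sh3bp2, Espl1, Dctn3 and Tmem14c lie apart from all wild-type points.

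On the lower side, Dctn3 (chr4:41714798-41723170), a subunit of the dynactin complex that links dynein to its cargo, headed the lower genes of at least 10 CPM. It ran from 12.0 to 17.8 CPM in the mutants, median 15.7, and from 18.7 to 27.5 in wild-type FGOs, median 23.9. No mutant oocyte reached a wild-type one, and the log2 fold change was -0.62 ± 0.07 (adjusted p = 4.20e-07) and -0.64 ± 0.08 (adjusted p = 2.21e-05). Tmem14c, a mitochondrial membrane protein needed for haem synthesis (chr13:41016250-41022575), ran from 130.6 to 146.1 CPM against 146.4 to 189.4. It fell by 0.26 ± 0.04 and 0.24 ± 0.04 on the log2 scale, and the groups were apart by a narrow margin. Rwdd1, a partner of the GTPase DRG2 (chr10:33996555-34019624), had 25.7 to 32.5 CPM against 32.1 to 44.5, with -0.38 ± 0.06 and -0.39 ± 0.06. Polr2j, a subunit of RNA polymerase II, had -0.36 ± 0.07 and -0.35 ± 0.06, and Nat14, a predicted acetyltransferase, -0.51 ± 0.09 and -0.54 ± 0.09.

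The transcripts that were over 2-fold lower were mostly rare, with 7 of the 29 at a mean of 5 CPM or more. Inha, the inhibin alpha subunit made by granulosa cells, ran from 1.15 to 5.22 CPM in the mutants, median 3.58, and from 2.83 to 26.1 in wild-type FGOs, median 7.58. Its log2 fold changes were -1.54 ± 0.32 and -1.67 ± 0.34, and the groups overlapped. Dusp22, a phosphatase of stress kinase signalling, had 0.134 to 0.738 CPM against 0.168 to 3.03, with -1.71 ± 0.38 and -1.62 ± 0.32. AC129016.2, an unnamed gene on chromosome 10, had 1.01 to 4.84 CPM against 3.77 to 12.5 and changed by -1.11 ± 0.20 and -1.21 ± 0.21. The list also held Nat8l, the enzyme that makes N-acetylaspartate (-2.13 and -1.96), and Slc25a33, a mitochondrial pyrimidine nucleotide carrier (-1.18 and -1.17).

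Genes annotated as small structured RNAs were part of this group. Gm22009, a small Cajal body RNA inside Kpna4, ran from 1.38 to 3.54 CPM in the mutants and from 3.36 to 13.2 in wild-type FGOs, with -1.64 ± 0.24 and -1.22 ± 0.21. Gm25848, a small nucleolar RNA inside Fbxo45, ran from 1.04 to 2.41 against 1.91 to 6.77 CPM, with -1.40 ± 0.19 and -1.08 ± 0.21. Of 26 tested nuclear and nucleolar RNA genes in a fixed name pattern, 3 were lower (11.5%) and none higher, and the list's median was -0.58 against 18 and -0.13 against replicates 9 to 18. These 3 were Rnu3a, the U3 RNA of ribosomal RNA processing (-2.11 and -1.23), Snord17, a guide for ribosomal RNA modification (-1.87 and -0.82), and Rmrp, the RNA of RNase MRP (-1.79 and -1.05). The same 3 were also higher in wild-type replicates 1 to 8 than in 9 to 18, by 1.54, 1.79 and 1.33 on the log2 scale. Gm22009 and Gm25848 were too, by 0.82 and 0.65 (edgeR adjusted p = 0.00339 and 0.00951). The part of that difference between wild-type sets in the mutant values was not tested. Gm22009, Gm25848 and Snord17 overlap Kpna4, Fbxo45 and Snx5 on the same strand. Reads of these small RNAs and of the overlapping genes cannot be told apart here. How well the library kit captures RNAs of this kind was not tested.

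Pseudogenes took a larger share of the lower genes than of all genes tested. Of 567 tested, 32 were lower and 2 higher in both comparisons, and they made up 13.3% of the lower genes, 0.61% of the higher genes and 3.93% of all genes tested. Their summed level was 5183 to 6745 CPM in the mutants and 6955 to 11290 in wild-type FGOs, so the groups did not overlap.

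A group of 7 unprocessed pseudogenes lies side by side on chromosome 1 (chr1:24611535-24616197, mm10) and copies mitochondrial genes. Each of the 7 shares at least 97.2% of its 31-base words with a gene of mitochondrial DNA. All 7 were lower in both comparisons, with medians of -0.83 and -0.53. Gm10925, a copy of the ATP synthase gene mt-Atp6, ran from 231.2 to 399.3 CPM in the mutants, median 329.5, against 409.9 to 955.6 in wild-type FGOs, median 519.7. Gm28661, a copy of the cytochrome oxidase gene mt-Co2, ran from 139.0 to 260.1 against 275.3 to 626.8 CPM. For both the mutants were apart from every wild-type library, with -0.78 ± 0.12 and -0.56 ± 0.09 for Gm10925 and -0.83 ± 0.13 and -0.62 ± 0.09 for Gm28661.

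Summed over the 7, the mutants had 815.7 to 1361 CPM, replicates 9 to 18 had 1358 to 1694 and replicates 1 to 8 had 1761 to 3425, so the mutants and replicates 9 to 18 met at their edges. Since the genes encoded by mitochondrial DNA stood at 0, reads that match both places cannot be assigned here, and a lower level of mitochondrial transcripts and of the nuclear copies cannot be told apart. Gm13339 and Gm13340, which lie inside Myo3a on the other strand and share 28.3% and 45.2% of their words with mitochondrial genes, were lower as well. Gm13339 ran from 80.7 to 129.8 CPM in the mutants and from 124.5 to 560.0 in wild-type FGOs (-1.09 ± 0.19 and -0.57 ± 0.09), and Gm13340 had -0.73 ± 0.11 and -0.50 ± 0.08. Both were called higher in wild-type replicates 1 to 8 than in 9 to 18, by 0.99 and 0.47 (edgeR adjusted p = 6.3e-05 and 6.0e-05).

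**Figure D3:**
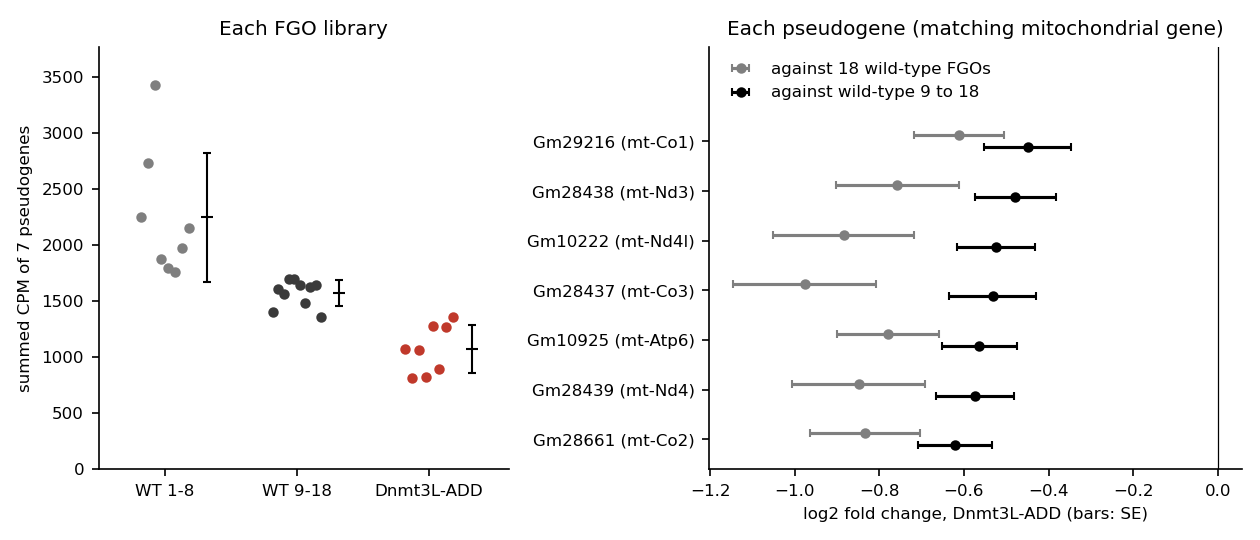
Left, the summed CPM of the 7 pseudogenes that share their sequence with mitochondrial genes, 1 point per FGO library, with mean and SD at the right of each group. Right, the log2 fold change of each pseudogene in Dnmt3L ADD/ADD FGOs with its standard error against both wild-type sets, with the matching mitochondrial gene in brackets, where every value lies below 0.

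The other 560 pseudogenes followed with smaller shifts. They had 25 lower and 2 higher calls, medians of -0.14 and -0.19, and 384 and 382 of them lay below 0 in the 2 comparisons, against the median of -0.03 and 0.00 over all genes. Their summed level was 4367 to 5464 CPM in the mutants and 5477 to 7865 in wild-type FGOs. Many are processed copies of abundant genes, and the 32 lower pseudogenes shared a median of 86.05% of their 31-base words with another gene, against 56.4% over all 567. Reads of a copy and its parent can therefore be exchanged, and these genes are uncertain. Rpl31-ps8 had 0.0 to 1.01 CPM against 0.557 to 2.14 (-1.40 ± 0.31 and -1.64 ± 0.33), and its parent Rpl31, a protein of the large ribosomal subunit, was lower too (-0.35 and -0.37). Rps13-ps2 had -1.18 and -1.16, while its parent Rps13 had -0.17 and -0.06 and was not called. Gm12346, a copy of Hsp90aa1 inside Ssh2, ran from 11.7 to 14.8 CPM in the mutants and from 24.9 to 38.1 in replicates 9 to 18 (-0.85 ± 0.17 and -1.21 ± 0.09). Replicates 1 to 8 ran from 12.9 to 19.2 CPM, 5 of the 8 inside the mutant range, and Gm12346 was itself called between the wild-type sets (edgeR adjusted p = 2.99e-06). These pairs were chosen after their values were seen.

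Hsp90aa1 was itself lower. This inducible HSP90 chaperone ran from 1162 to 1491 CPM in the mutants, median 1330, and from 1460 to 1752 in wild-type FGOs, median 1611. Its log2 fold change was -0.26 ± 0.05 (adjusted p = 0.00172) and -0.27 ± 0.05 (adjusted p = 0.00114), with a slight overlap. Of 32 tested heat shock and chaperone genes, 4 were lower (12.5%) and none higher, and the median was -0.03 and -0.11. Hspe1, the small subunit of the mitochondrial chaperonin, had -0.52 ± 0.11 and -0.70 ± 0.10, and Dnaja1, an HSP70 co-chaperone, -0.22 ± 0.05 and -0.20 ± 0.04. Hspe1 was itself lower in wild-type replicates 1 to 8 than in 9 to 18 (-0.45, edgeR adjusted p = 8.19e-04). It ran from 32.15 to 50.36 CPM in replicates 1 to 8 and from 25.89 to 49.23 in the mutants. Tcp1, a subunit of the cytosolic chaperonin, had -0.14 and -0.18, and its call against 18 was lost in 5 of 26 fits without a library, with adjusted p up to 0.0777. A list of 18 genes of HSP90 and its co-chaperones was drawn up after these values were seen, so its count is no test of the family. Its medians were 0.04 against 18 and -0.02 against replicates 9 to 18, and 5 genes were lower and none higher. Besides Hsp90aa1 and Dnaja1, these were the p23 co-chaperone Ptges3 (-0.26 and -0.19), Fkbp4 and St13. The calls of Fkbp4 and St13 against 18 were lost in 8 and 5 of the 26 fits, with adjusted p up to 0.0765 and 0.0914. Ptges3 was itself higher in wild-type replicates 1 to 8 than in 9 to 18 (0.17, edgeR adjusted p = 0.0351).

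Cytosolic ribosomal protein genes had more lower than higher calls. Of 84 tested, 8 were lower (9.52%) and 2 higher (2.38%), with a median of -0.07 and -0.05. Rps23, a small subunit protein at the decoding centre, ran from 6.62 to 13.2 CPM in the mutants, median 10.9, and from 18.02 to 30.4 in replicates 9 to 18, median 20.2. The full wild-type set reached down to 8.22 CPM, and the log2 fold change was -0.998 ± 0.186 and -1.03 ± 0.13. Rpl12, of the ribosomal stalk, had -0.38 ± 0.06 and -0.39 ± 0.07, and Rpl23a -0.42 ± 0.07 and -0.45 ± 0.08. Ribosomal protein genes have many processed copies in the genome, so these values are uncertain in the sense given for pseudogenes.

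Genes of oxidative phosphorylation encoded in the nucleus had 7 lower (8.24%) and 2 higher (2.35%) calls of 85 tested and medians of -0.06 and -0.01. The complex I subunit Ndufs6 had -0.79 ± 0.14 and -0.83 ± 0.15 at a mean of 6.83 CPM in wild-type and 3.97 in mutant FGOs. The complex III subunit Uqcr10 had -0.42 and -0.38 and the ATP synthase subunit Atp5j -0.31 and -0.29, whereas the ATP synthase subunit Atp5b rose by 0.19 and 0.18. Of 24 citric acid cycle genes, 0 were called in edgeR or DESeq2 and 3 had an unadjusted p under 0.05 in both comparisons.

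Zinc finger genes named Zfp were lower in larger number than higher, 14 (4.44%) against 1 (0.317%) of 315 tested. Their median was -0.20 against 18 and -0.08 against replicates 9 to 18, both below the all-gene median. Zfp758 had -0.47 ± 0.10 and -0.42 ± 0.10 and Zfp12 -1.18 ± 0.31 and -0.88 ± 0.19, from 5.40 CPM in wild-type to 2.42 in mutant FGOs. These families of DNA-binding proteins lie in clusters of related genes.

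Signalling and growth genes were among the higher calls. Of 29 tested genes of PI3K, AKT and mTOR signalling, 4 were higher (13.8%) and none lower, at medians of -0.03 and -0.01 beside -0.03 and 0.00 over all genes. The kinase Akt1, which acts below PI3K in the growing oocyte, ran from 102.5 to 144.7 CPM in the mutants and from 87.4 to 128.1 in wild-type FGOs (0.33 ± 0.06 and 0.34 ± 0.06). Akt2 had 0.26 and 0.20, and Inpp5d, a phosphatase that opposes PI3K, 0.23 and 0.19. The fourth, Pdk1, is pyruvate dehydrogenase kinase by its symbol, which the list holds beside the signalling genes, and its call against 18 was lost in 18 of 26 fits without a library, with adjusted p up to 0.135. Glycolysis and pyruvate use had 3 higher (10.7%) and none lower of 28 tested. Aldoa, the aldolase of glycolysis, had 0.33 ± 0.07 and 0.37 ± 0.08, and the other 2 were Pdk1 and the enolase Eno1, whose call against replicates 9 to 18 was lost in 11 of 18 fits, with adjusted p up to 0.082.

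Some cell cycle and DNA replication genes were called higher. Of 37 genes of meiotic cell cycle control, Cdc25a, a phosphatase that activates cyclin-dependent kinases, was higher (0.30 ± 0.06 and 0.26 ± 0.04) and none was lower. That is 2.7% of the list, against 2.27% over all genes. In a list of 24 genes of replication origin licensing and priming, drawn up after values were seen, 5 were higher (20.8%) and none lower, at medians of 0.11 and 0.02. As the list was made with the values known, its share is no test of the class. Cdc6 and Cdt1, which load the replicative helicase, had 0.38 ± 0.07 and 0.26 ± 0.06, and 0.26 ± 0.06 and 0.25 ± 0.04. The DNA polymerase alpha subunit Pola1 had 0.29 ± 0.06 and 0.25 ± 0.04 and the primase subunit Prim2 0.28 ± 0.05 and 0.29 ± 0.06. Gins4, a helicase subunit, lost its call against replicates 9 to 18 in 12 of 18 fits, with adjusted p up to 0.0896.

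Cytoskeletal genes went both ways. Of 37 genes of the actin cytoskeleton and cortex, 2 were lower (5.41%) and 1 higher (2.7%), beside 1.67% and 2.27% over all genes. The profilin Pfn2 had -0.49 ± 0.09 and -0.43 ± 0.09, while the formin Diaph3 had 0.21 and 0.33 and lost its call against 18 in 4 of 26 fits (adjusted p up to 0.0901). Of 18 tubulins, a list added after values were seen, 3 were lower (16.7%) and 2 higher (11.1%). Tuba1b had -0.74 ± 0.16 and -0.62 ± 0.15 at a mean of 6.83 CPM in wild-type FGOs. The more abundant Tuba4a had -0.20 and -0.26, with an adjusted p of 0.0591 against 18 without mutant replicate 7.

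Several oocyte-specific genes were lower by small amounts. Of 18 oocyte marker genes, Zp2, Gdf9, Padi6 and Nlrp5 were lower in both comparisons and none was higher. These 4 are 22.2% of the list, against 1.67% lower over all genes, and the list had medians of -0.18 and -0.10. Some of them also belong to the lists that follow. Of 11 tested genes of the zona pellucida and fertilization, Zp2, a zona protein that binds sperm, was lower (9.09%). It ran from 794.4 to 1277 CPM in the mutants and from 794.9 to 2013 in wild-type FGOs, with -0.41 ± 0.10 and -0.29 ± 0.07. Of 29 genes of the subcortical maternal complex and other maternal effect genes, 3 were lower (10.3%) and none higher. These were Padi6, Nlrp5 and Nlrp14, with log2 fold changes of -0.18, -0.25 and -0.30 against 18 and -0.17, -0.26 and -0.16 against replicates 9 to 18. Each sat near the threshold. Padi6 and Nlrp5 lost the call against 18 in 15 and 20 of 26 fits without a library, with adjusted p up to 0.118 and 0.125, and Nlrp14 lost it against replicates 9 to 18 in 12 of 18, with adjusted p up to 0.0907.

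Of 21 oocyte signals to follicle cells, 1 was higher (4.76%) and 2 lower (9.52%), against 2.27% and 1.67% over all genes. The higher one, Bmp6, a growth factor that acts on granulosa cells, rose by 0.29 ± 0.07 and 0.26 ± 0.05. Inhba, 1 of the lower ones, is given below with the granulosa markers. Gdf9, the oocyte's main paracrine growth factor, had -0.18 ± 0.05 and -0.22 ± 0.04 and lost its call against 18 in 4 of 26 fits (adjusted p up to 0.0942). Of 19 oocyte transcription factors, Pou5f1, the pluripotency factor OCT4, was higher (5.26%, against 2.27% over all genes). It ran from 126.0 to 186.7 CPM in the mutants and from 97.0 to 162.0 in wild-type FGOs (0.40 ± 0.07 and 0.39 ± 0.07). The 31 tested genes of mRNA storage and translation control had 0 calls in both in edgeR and in DESeq2, and 5 had an unadjusted p under 0.05.

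Other lists held few calls, given here beside 2.27% higher and 1.67% lower over all genes. The proteasome had 2 higher (5.71%) and 1 lower (2.86%) of 35, the higher ones being the ATPase subunit Psmc4 (0.28 and 0.23) and Psmb4 (0.24 and 0.31). Splicing factors had 1 higher of 39 (2.56%), the serine- and arginine-rich factor Srsf2 (0.35 ± 0.07 and 0.32 ± 0.06). Unfolded protein response (25 tested), chromatin remodelling (31) and mRNA decay (35) had 1 higher gene each (4.0%, 3.23% and 2.86%). These were Edem2, Gatad2a and Edc4, all of which lost a call in at least 14 fits of 1 comparison without a library. Redox and glutathione genes had 2 lower of 29 (6.9%). These were the peroxidase Prdx1 (-0.27 and -0.19) and the transferase Gstm1 (-1.63 and -1.77), the latter at 1.88 CPM in wild-type FGOs. Fatty acid oxidation (32), cholesterol synthesis (29), transfer RNA synthetases (25), autophagy (27) and WNT signalling (24) had 0 calls in edgeR and in DESeq2, with 3 to 5 genes each at an unadjusted p under 0.05 in both comparisons.

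**Figure D4:**
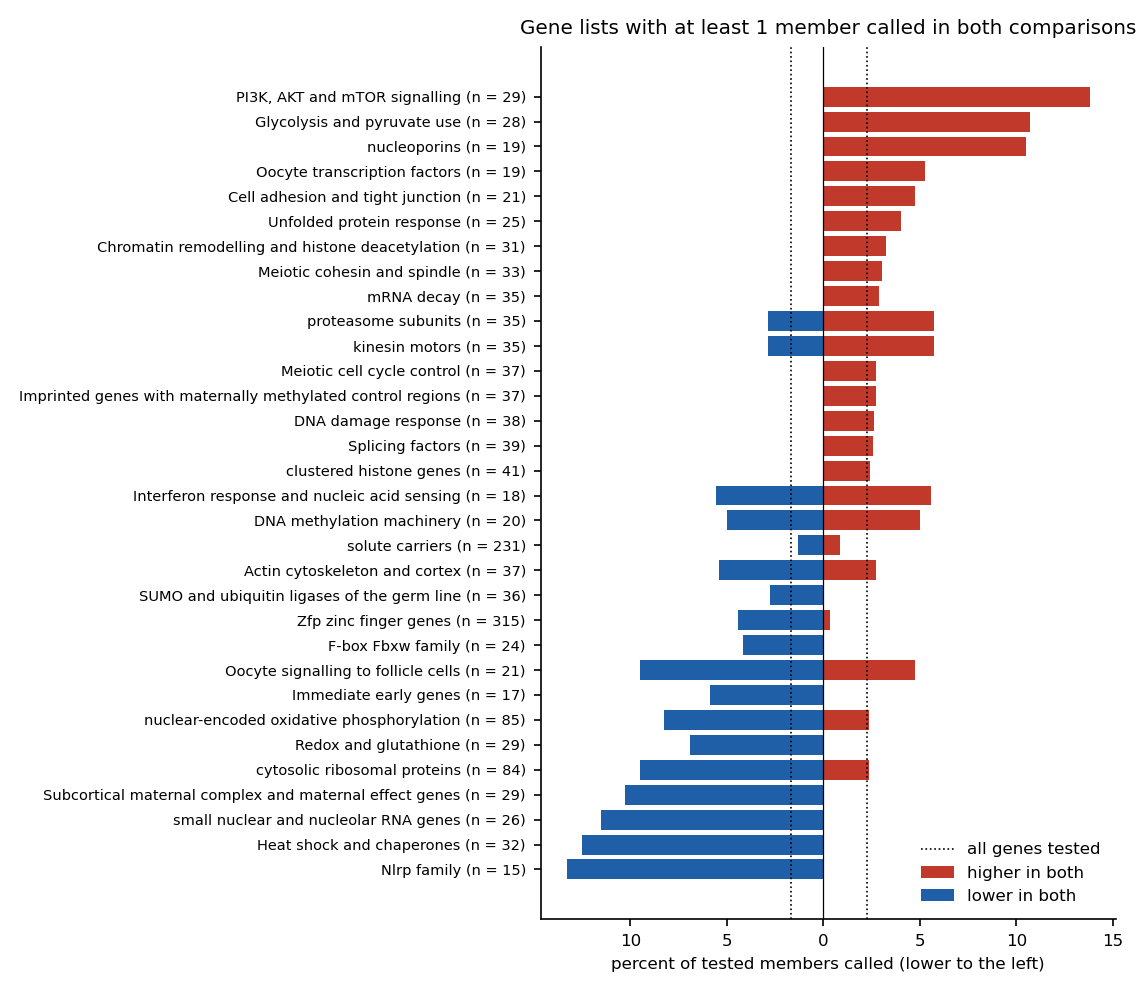
Bars give the percentage of the tested members of each gene list that were called higher (red, to the right) or lower (blue, to the left) in both comparisons, for lists of at least 15 tested genes with at least 1 call. The dotted lines mark the shares over all tested genes, 2.27% higher and 1.67% lower, and n is the number of members tested, so that in most lists a bar rests on 1 to 4 genes.

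Some markers of follicle cells moved with the genotype. Markers of oocytes summed to 12450 to 15290 CPM in the mutants and 12850 to 17730 in wild-type FGOs, of which replicates 9 to 18 spanned 14330 to 15390. Their mean sum was 13650 ± 1023 (SD, n = 8) in the mutants and 14980 ± 363.8 (SD, n = 10) in replicates 9 to 18, and 4 of the 18 were lower as given above. Of 25 tested granulosa and cumulus markers, 3 were lower (12.0%, against 1.67% over all genes) and none higher in both comparisons. Beside Inha these were Inhba, the activin beta subunit (-1.39 ± 0.40 and -1.45 ± 0.35), and Aldh1a1, a retinal dehydrogenase (-1.57 ± 0.42 and -1.50 ± 0.47). The call of Inhba against 18 was lost without mutant replicate 1, 2 or 7 (adjusted p up to 0.0727), and that of Aldh1a1 in 13 of 18 fits against replicates 9 to 18 (adjusted p up to 0.116). The immediate early gene Jun, a subunit of the AP-1 transcription factor, was lower as well (-1.94 ± 0.56 and -2.23 ± 0.54, at a mean of 1.40 CPM in wild-type and 0.353 in mutant FGOs) and lost its call against 18 in 6 of 26 fits, with adjusted p up to 0.0688.

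The 30 granulosa and cumulus markers summed to 396.1 to 497.7 CPM in the mutants, 435.9 to 704.0 in all wild-type FGOs and 457.7 to 704.0 in replicates 9 to 18, and the median of the list was -0.54 and -0.19. The 3 of them with the highest CPM, Serpine2, Nr5a2 and Esr2, were not called in both comparisons. Serpine2 ran from 140.2 to 197.9 CPM in the mutants and from 160.1 to 236.3 in wild-type FGOs. Nr5a2 had 67.6 to 97.9 against 69.1 to 132.9, and Esr2 61.7 to 77.3 against 45.1 to 77.9. Of the 30, Ptx3, a protein of the expanding cumulus matrix, stood at 0 in every library. Theca markers summed to 33.3 to 80.5 against 36.1 to 188.6 CPM. Of 9 tested, 1 was lower (11.1%), Aldh1a1, shared with the granulosa list, and the defining marker Insl3 stood at 0 throughout. The theca list had medians of -0.70 and -0.85 and the stroma list -0.25 and -0.53. Stroma (14 tested), endothelium (5), blood (3) and surface epithelium (3) had 0 calls in edgeR and DESeq2, with 2, 0, 0 and 0 at an unadjusted p under 0.05. Wild-type replicate 11 was high in granulosa, theca and surface epithelium markers. Without it, 471 genes were called in both comparisons, 265 higher and 206 lower, and 27 over 2-fold, 6 higher and 21 lower. The part of follicle cell RNA in the lower genes was not tested.

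The genes around the edited locus held a cluster of higher calls. Within 5 Mb of Dnmt3l, 11 of 157 tested genes were higher in both (7.01%) and 2 lower (1.27%). Within 20 Mb the counts were 16 (5.06%) and 3 of 316, on the rest of chromosome 10, 10 (2.41%) and 7 of 415, and over all genes beyond 20 Mb, 312 (2.21%) and 238 (1.69%) of 14120. The 11 higher genes rose by 0.18 to 0.56 against 18 and 0.17 to 0.73 against replicates 9 to 18. Pcnt, the centrosomal scaffold pericentrin, ran from 1446 to 1890 CPM in the mutants, median 1570, and from 847.0 to 1518 in wild-type FGOs, median 1184 (0.45 ± 0.08 and 0.37 ± 0.06). Hmg20b, described above, was another. Dapk3, a death-associated kinase, had 0.42 ± 0.06 and 0.38 ± 0.06, Plekhj1 0.43 ± 0.07 and 0.42 ± 0.07, and the elongation factor Eef2 0.21 ± 0.04 and 0.21 ± 0.03. The others were D10Jhu81e, Mcm3ap, Rps15, Pofut2, Cirbp and Rexo1. The lower genes were Bsg, a chaperone of lactate transporters (-0.22 ± 0.05 and -0.25 ± 0.05), and Gnaz, whose call against 18 was lost in 19 of 26 fits with adjusted p up to 0.103.

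The line was made in zygotes of mixed strain, and linked variants travel with the edited allele, so an effect of the mutation and one of linked sequence cannot be told apart for these genes within the comparison. The Dnmt3a ADD/ADD FGOs, whose edit is on chromosome 12, had values of 0.13 to 0.49 for the same 11 genes, 10 of them called, and no gene of the 11 differed between the single mutants (Dnmt3L minus Dnmt3a -0.11 to 0.11, lowest adjusted p = 0.782). In the double mutants, which carry the Dnmt3L edit, the 11 had -0.12 to 0.14 and 0 were called in edgeR. These 3 contrasts share the 18 wild-type libraries, and the double mutants lie with wild-type replicates 1 to 8 in their share of mapped reads.

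**Figure D5:**
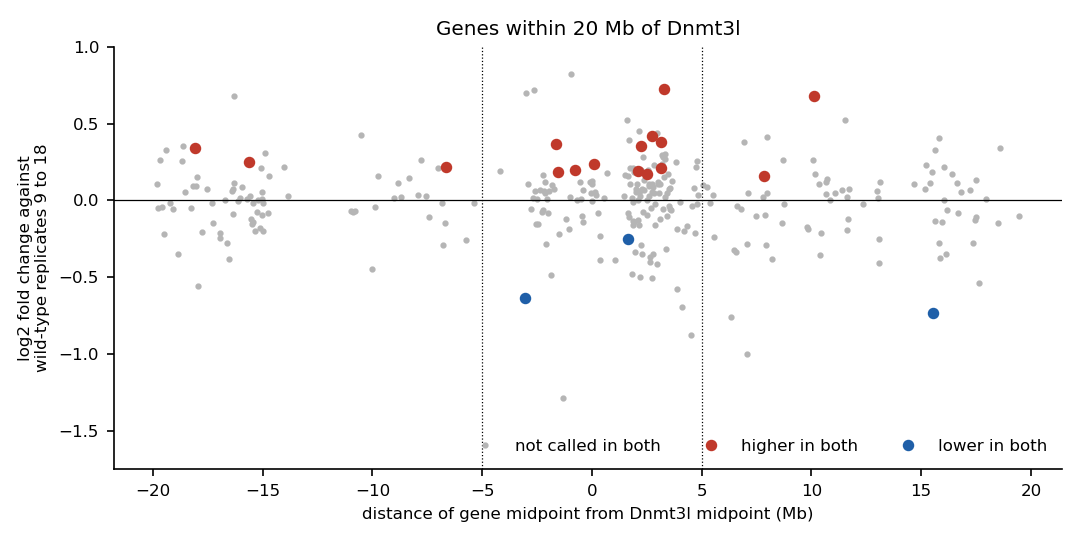
The log2 fold change against wild-type replicates 9 to 18 of each gene tested within 20 Mb of Dnmt3l, by the distance of its midpoint from that of Dnmt3l in Mb. Red and blue points are genes called higher and lower in both comparisons, grey points are not called, and 11 red points lie between the dotted lines at 5 Mb on either side.

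The genes called higher and lower had different median lengths and levels. The lower genes had a median exon length of 2576 bases, the higher ones 4174.5 and all tested genes 3905.5. The share called lower fell from 3.25% in the shortest of 5 equal bins of genes to 1.0% in the longest. The higher genes had a median GC content of 51.9% and the lower ones 47.2%, against 49.0% over all. The share called higher rose from 0.242% in the bin with the lowest mean CPM to 5.02% in the highest. The share called lower was 0.935% and 1.84% in the same bins. What the number of counts did to the power to call a change was not tested. A count of CG sites in RefSeq promoters (GRCm38) was void, since 57.7% of the lower and 77.7% of the higher genes had a promoter in the table.

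Set beside the other mutants, the Dnmt3L ADD/ADD FGOs differed from the Dnmt3a ADD/ADD FGOs at 2 genes and from the double mutants at 3800 of 15726 (edgeR, no fold limit). The 2 genes were Ide, an insulin-degrading protease (-0.59 ± 0.06, adjusted p = 2.56e-09), and Dpy19l4, a C-mannosyltransferase family member (-0.78 ± 0.08, adjusted p = 2.56e-09). Both were higher in Dnmt3a ADD/ADD than in wild-type FGOs, by 0.56 ± 0.05 and 0.70 ± 0.06. Ide is also on the list of strain differences between C57BL/6J and C57BL/6N, and an effect of strain was not tested. At an unadjusted p under 0.05, 1012 genes differed between the single mutants. Calls against wild type numbered 964 here, 2465 for the Dnmt3a edit alone and 1926 for both edits. The large count against the double mutants goes with the 2 sets of share of mapped reads and cannot be told apart from it.

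Some of the clearest genes were alike in the 3 mutants. In the order Dnmt3L ADD/ADD, Dnmt3a ADD/ADD, double mutant, the log2 fold changes of Sh3bp2 against wild type were 0.61 ± 0.08, 0.75 ± 0.08 and 0.67 ± 0.08. Espl1 had 0.32 ± 0.05, 0.40 ± 0.05 and 0.31 ± 0.05, and Gcc1 had 1.14 ± 0.18, 1.31 ± 0.18 and 1.38 ± 0.18. For these genes no contrast of Dnmt3L ADD/ADD with another mutant passed the test (adjusted p from 0.45 to 0.996). Others were shared by the single mutants. Gm42887 had 2.23 ± 0.26 in Dnmt3L ADD/ADD and 2.17 ± 0.26 in Dnmt3a ADD/ADD, but -0.96 ± 0.31 in double mutants, and Dnmt3L ADD/ADD exceeded the double mutants by 3.20 ± 0.35 (adjusted p = 1.13e-07). Dctn3 had -0.62 ± 0.07, -0.63 ± 0.07 and -0.24 ± 0.07, and the difference from the double mutants was -0.38 ± 0.08 (adjusted p = 0.00142). Rps23 had -0.998 ± 0.186, -1.36 ± 0.19 and 0.03 ± 0.17, and Gm10925 -0.78 ± 0.12, -1.14 ± 0.12 and -0.22 ± 0.12.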

How the data were processed

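Single-oocyte libraries were made with the SMART-Seq HT kit. The deposited values are raw counts of reads per gene, made by the authors. The submitters' processing notes name STAR, HTSeq and mm10, and the study's methods add featureCounts, while the annotation release, strand setting and treatment of reads with several positions are not given in the sources used here. Gene class, exon length and sequence came from GENCODE M21 (47622 of 51734 genes matched by symbol and chromosome).

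Counts were normalised by TMM, filtered with filterByExpr (minimum count 10) and tested with the quasi-likelihood test of edgeR 4.0.16 (R 4.3.3). All 42 FGO libraries in 4 genotype groups gave the comparison with 18 wild-type FGOs, and 18 libraries that with wild-type replicates 9 to 18. Genes were called at a Benjamini-Hochberg adjusted p under 0.05, with and without a 2-fold limit. The common biological coefficient of variation was 25.2% and 16.6%. DESeq2 1.42.0 and edgeR's exact test were alternatives. Library totals and gene numbers were compared by exact permutation tests (scipy 1.17.1). Shared sequence was counted in words of 31 bases. Figures were drawn with matplotlib 3.10.9.

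Named genes were Dnmt3l, Dnmt3a, up to 10 genes per direction called over 2-fold in both comparisons, up to 15 without a fold limit at 10 CPM or more, up to 4 called members of each list, and called genes within 5 Mb of Dnmt3l. The 3 granulosa and cumulus markers with the highest CPM were also named. Ide, Dpy19l4, Cdc6, Cdt1, Pola1, Prim2, Gins4, the tubulins, Fkbp4, Ptges3, St13 and pseudogene parents were chosen after their values were seen. The libraries compared and all lists were chosen with earlier results of these data known. No libraries of a group agreed within counting noise (lowest chi-square per degree of freedom 5.02). On simulated data, 100 of 100 genes changed by 2 on the log2 scale and 83 of 100 changed by 1 were found among 15726 genes in the 42-library fit, with 11 wrong calls. In the 18-library fit over 14438 genes, 100 and 84 of 100 were found, with 4 wrong calls. The simulated data held no difference between wild-type sets, which in the real data reached 3720 of 14664 genes. The wrong calls therefore do not measure error from such a difference. MII oocytes and embryos were not used here, and the values of some named genes are not reported here.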

Additional observations from a re-analysis of the deposited data

Results flagged for a closer look

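Of 246 sets of 8 or 10 libraries checked for a library far from the others of its group (Dixon's criterion), 10 stood out, 1 in the mutants and 9 in wild-type replicates 9 to 18. Chance alone flags about 1 in 20 such groups. In the mutants, AC129016.2 was lowest in replicate 1 at 0.198 log2 CPM, with the next at 1.79. In wild-type FGOs, Zp2 was lowest in replicate 18 at 10.12 log2 CPM (next 10.29) and Edem2 in the same library at 5.81 (next 5.91). Replicate 13 was lowest for Zfp12 at 1.17 (next 1.97) and for Ptges3 at 6.59 (next 6.82). Atp5j was lowest in replicate 12 at 4.78 (next 4.91) and Gnaz in replicate 16 at 3.51 (next 4.15). Wild-type replicate 11 was highest for the summed markers of granulosa and cumulus cells at 704.0 CPM (next 559.1), of theca and interstitial cells at 188.6 CPM (next 87.2) and of surface epithelium at 21.5 CPM (next 16.3). The counts of called genes without that library are given with the follicle cell markers.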

How the results depend on the processing

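The numbers of called genes moved with the filter and with the wild-type set. With no filter beyond 1 count, 467 genes were called against 18 without a fold limit, 302 in both (159 higher, 143 lower), 179 over 2-fold against replicates 9 to 18, and 49 over 2-fold in both (15 higher, 34 lower). That setting also moved the median over all genes to -0.17 against 18 and -0.07 against replicates 9 to 18. With a mean of at least 10 CPM, 14, 8 and 4 genes passed 2-fold against 18, against replicates 9 to 18 and in both (1 higher, 3 lower), so the over 2-fold calls were mostly rare transcripts. DESeq2 called 162 over 2-fold against 18. Wild-type replicates 1 to 8 alone gave 433 over 2-fold and 2328 without a limit, and put Dnmt3l at 0.47 (adjusted p = 0.00266), Dnmt3a at 0.23 (adjusted p = 0.011) and the mutant mean total 87180 counts above wild type, not below. With the wild-type set as a covariate Dnmt3l was at -0.00082. With replicates 1 to 8 kept apart in the 42-library fit, 767 genes were called against replicates 9 to 18. The smaller number of genes detected in mutants had p = 0.0644 (exact permutation test) against replicates 9 to 18 when at least 10 counts were asked, a difference of -640.3 genes.

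Leaving out each library in turn gave 584 to 1109 genes against 18 and 78 to 117 over 2-fold, 1070 to 1488 and 91 to 105 against replicates 9 to 18, and 371 to 631 and 25 to 39 in both. Dnmt3l ran from 0.15 to 0.21 against 18 and from -0.039 to 0.026 against replicates 9 to 18, and Dnmt3a from 0.09 to 0.14 and from 0.01 to 0.06. Replicate numbers did not pair the samples, with correlations of same-numbered deviations from -0.32 to 0.21. The fit with the replicate block called 227 genes over 2-fold and put Dnmt3l at 0.47 and Dnmt3a at 0.23. For the genes named by rule or in the text other than Dnmt3l and Dnmt3a, 1684 values under other settings were on the same side of the threshold, 158 no longer passed it and 1 (Kmt2d, with wild-type replicates 1 to 8 alone) newly did. Dnmt3l and Dnmt3a newly passed with replicates 1 to 8 alone and with the replicate block (adjusted p = 0.0112 and 0.0489), and Dnmt3l was the 1 gene that changed sign. With libraries left out, 4602 were on the same side and 282 were not. Of the 29 genes over 2-fold lower in both, 22 had a mean under 5 CPM, and what depth did to these calls was not tested.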
